A study of Mus musculus with 36 samples.

Results

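The Hedgehog pathway response genes are 7 genes: Gli1, Gli2, Gli3, Ptch1, Hhip, Smo and Sufu. They were chosen by name, as the rows of the count table with these symbols, and all 7 of 7 were found among 39017 genes and passed the filter on low counts that left 14439 genes. They were followed in murine pancreatic fibroblasts of the C57BL/6 strain, grown alone (mono-culture) or for 48 h in direct contact with a tumor line. Each co-culture held clone E, H, K, M, N, T or V, all tumor sub-clones, or KPC1, a name that the labels do not explain. After co-culture the fibroblasts were separated by flow sorting on the GFP of the tumor cells, and 36 poly(A) RNA libraries were sequenced, 4 for each of the 9 groups. The labels do not say whether the 4 replicates of a group came from separate cultures, so p-values measure the spread between these libraries, which may be technical. How the fibroblasts were isolated is not given in the sources used here, and each tumor clone stands for itself alone.

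Hedgehog ligands bind the membrane protein Patched, which in their absence holds the transmembrane protein Smoothened (Smo) inactive. Active Smo, working at the primary cilium, frees the GLI transcription factors from their inhibitor Sufu, and the GLI factors then switch on target genes that include Gli1, Ptch1 and Hhip. Because Ptch1 and Hhip restrain the ligand, their induction is a negative feedback, and the RNA of Gli1 and Ptch1 is widely read as a measure of pathway output. In pancreatic cancer the ligand is known to come mainly from tumor cells and the response to lie in the surrounding fibroblasts.

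Promoter sequence was available for 6 of the 7 members, from RefSeq on GRCm38.p6, the assembly that the mm10 build of the files holds. The GLI binding sequence GACCACCCA was searched on both strands in windows of 300 bases around each annotated start, 250 before and 50 after, together with its core ACCACCC, which every full site contains. Of 32851 windows, 83 (0.253%) held the full sequence and 1514 (4.61%) the core. Among the 6 member windows none held the full sequence and 1, that of Gli2, held the core, once. Gli1 had no window. The 36 other pathway genes with a window gave 1 more match of the core, at Prkar1a, and none of the full sequence. A match is a description of these letters only. The bases before the start are shown for Ptch1, Gli2 and Smo. Those of Ptch1 (chr13:63565736-63565985, minus strand), which rose in every co-culture, lie inside the annotated gene, which reaches to 63573598. Gli2 (chr1:119053620-119053869, minus strand) and Smo (chr6:29735247-29735496, plus strand) fell together in 4 co-cultures. Capitals mark the core, here in its reverse complement GGGTGGT, and the sequences of Ptch1 and Smo contain none.
Ptch1: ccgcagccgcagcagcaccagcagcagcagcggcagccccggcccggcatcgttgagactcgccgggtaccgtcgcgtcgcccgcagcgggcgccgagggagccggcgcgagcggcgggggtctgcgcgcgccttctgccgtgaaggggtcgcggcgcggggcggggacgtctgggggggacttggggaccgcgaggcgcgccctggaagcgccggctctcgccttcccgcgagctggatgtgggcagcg
Gli2: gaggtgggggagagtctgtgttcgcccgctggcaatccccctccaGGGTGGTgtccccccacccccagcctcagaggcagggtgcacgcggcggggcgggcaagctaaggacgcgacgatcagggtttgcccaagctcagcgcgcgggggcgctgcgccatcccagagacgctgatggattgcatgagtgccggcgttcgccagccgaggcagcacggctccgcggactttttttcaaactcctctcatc
Smo: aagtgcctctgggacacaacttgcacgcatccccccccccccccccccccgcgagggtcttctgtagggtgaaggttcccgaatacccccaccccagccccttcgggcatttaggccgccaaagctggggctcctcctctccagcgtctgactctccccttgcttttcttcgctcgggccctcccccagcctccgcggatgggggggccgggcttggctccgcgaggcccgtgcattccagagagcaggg

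Co-culture raised Gli1 and Ptch1 and lowered Smo. In the mean of the 7 clonal co-cultures against mono-culture, Gli1 was 5.35-fold higher and Ptch1 1.94-fold higher, while Smo was 1.33-fold lower. Ptch1 rose with all 8 tumor lines and Gli1 with 7 of 8, the exception being clone K, whereas Smo fell with 6 of 8, the exceptions being clones K and M. Gli2 and Gli3, Hhip and Sufu did not pass the test in the clonal mean, and each of them differed from mono-culture with some lines only. Levels between genes are compared here as RPKM, which divides by gene length: in mono-culture Smo stood at 49.5 ± 0.834 RPKM (SD, n = 4), Gli3 at 11.8 ± 0.714, Sufu at 10.8 ± 0.640, Gli2 at 5.63 ± 0.331, Ptch1 at 1.99 ± 0.272, Gli1 at 0.341 ± 0.0976 and Hhip at 0.0376 ± 0.0141. The transducers were thus the more abundant members and the targets the least abundant before contact with tumor cells.

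Library totals ran from 12532122 to 21985538 counts (mean 18177806, SD 2418484, n = 36). Fibroblast markers were present throughout: the summed level of 10 of them (Col1a1, Col1a2, Col3a1, Pdgfra, Pdgfrb, Vim, Dcn, Lum, Thy1 and Fap) was 21240 to 23093 CPM in mono-culture and 10902 to 32116 CPM in co-culture, where CPM is the count relative to the library size scaled by TMM. By line, 5, 6, 5 and 6 of these 10 markers were called lower than in mono-culture with clones H, T and V and KPC1. The shares of all genes called lower there were 26.4%, 24.7%, 28.9% and 28.5%. With clones E, K, M and N 0 markers were called lower, beside 15.5%, 8.69%, 10.8% and 19.2% of all genes. With each of the 8 lines 2 to 4 markers were called higher, beside 10.4% (clone K) to 30.5% (KPC1) of all genes. Of 12 epithelial markers, 9 had counts in mono-culture and 8 to 11 in each co-culture. Their sum was 1.37 to 1.93 CPM in mono-culture and 18.6 to 802 CPM in co-culture, mostly from the keratins Krt8, Krt18 and Krt19, while Cldn4 and Esrp1 reached 3 and 8 counts over all 36 libraries. All 8 co-cultures therefore carried RNA of these 3 keratins well above the mono-culture, in amounts that varied between the libraries of a line. Cdh1 was called higher with 6 lines and Cldn3 with 4, but Cdh1 with clone M was at 0.030 CPM, against 0.258 CPM in mono-culture. Krt7 was called with no line. Epcam was at 0.177 CPM in mono-culture and 0 to 0.166 CPM in the line means, and Cldn7 at 0.281 and 0.025 to 0.198 CPM. The sum is thus chiefly a keratin level. Of 6 endothelial markers the sum stayed between 1.12 and 6.39 CPM and of 6 leukocyte markers between 1.44 and 16.3 CPM, with Tie1 and Cd3e at 0 counts in all libraries. Of 10 proliferation genes, 0 were higher in the clonal mean, 1 was lower and 9 were not called, beside 24.3% of all genes higher and 24.9% lower. This mean runs over lines of opposite sign. Called higher were 4 with clone V, 3 with H and 2 with KPC1, beside 29.4%, 27.8% and 30.5% of all genes. Called lower were 4 with clone K and 3 each with M and N, beside 8.69%, 10.8% and 19.2%. A single gene was lower with each of clones H and T and KPC1, beside 26.4%, 24.7% and 28.5%. Their summed level had a median of 1945 CPM in mono-culture and line medians from 1575 CPM with clone N to 2497 CPM with clone H. In bulk RNA, fewer cells of a type and less RNA per cell cannot be told apart.

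The ligands come first in the pathway. Shh, the ligand best known in pancreatic cancer, had 0 counts in all 36 libraries, and Ihh had 88 counts in all, at most 8 in a library. Dhh, the remaining ligand, had 1, 0, 0 and 1 counts in the 4 mono-culture libraries. With KPC1 it had 98, 17, 55 and 46 counts, and its levels were 5.17, 1.03, 3.39 and 2.62 CPM in replicates 1 to 4. With clone N the levels were 0.890, 1.84, 1.68 and 1.70 CPM, and with clone T 2.36, 1.15, 1.37 and 1.33 CPM. Dhh passed the test in the clonal mean (adjusted p = 0.00082) and with 6 of 8 lines, the exceptions being clone E (0.207 ± 0.181 CPM, SD, n = 4) and clone K (0.185 ± 0.154 CPM). The low-count filter kept Dhh through co-culture libraries only, as the mono-culture held at most 1 count in a library. The tests against mono-culture are thus not independent of the filter and rest on 2 counts there. The ratio of summed counts to mono-culture, which rests on 2 counts, was 111 with KPC1 (95% counting interval 30.4 to 924) and 26.9 over the 7 clones (7.39 to 223). These intervals cover counting error only. Dhh and the epithelial markers moved together: within the lines the correlation of log2 Dhh level with the log2 marker sum was 0.75 over 32 libraries and over the 8 line means it was 0.50, both between quantities of the same libraries. Within clone M, Dhh had 0 counts in replicate 2 at 52.8 CPM of epithelial markers and 30 counts in replicate 3 at 523 CPM. Between lines the levels did not always go together. With clone E, Dhh had 0 to 7 counts at 261 to 497 CPM of the markers, while clone V replicate 4 had 34 counts at 215 CPM. The part of the epithelial marker RNA in the Dhh result was not tested. Among the other genes of ligand maturation and release, Hhat, Disp1, Disp2 and Scube3 did not pass the test in the clonal mean. Of the 9 genes on this list 5 could be tested, of which 1 was higher, 0 were lower and 4 were not called, with a median log2 difference of 0.06 against 0.01 over all 14439 genes, of which 49.2% were called (24.3% higher and 24.9% lower).

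Ptch1 (ENSMUSG00000021466, chr13:63508328-63573598, minus strand), the receptor that binds the ligand and a direct target of the pathway, was at 12.6, 14.3, 14.7 and 17.2 CPM in the mono-culture libraries. In co-culture with clone E it was at 22.6, 27.1, 27.4 and 21.3 CPM, with clone H at 29.6, 24.3, 28.02 and 22.2, with clone K at 28.95, 36.9, 38.0 and 28.7 and with clone M at 39.3, 41.7, 45.9 and 28.5. With clone N it was at 28.4, 37.6, 26.3 and 24.1 CPM, with clone T at 29.04, 26.8, 28.7 and 23.3, with clone V at 18.3, 23.5, 26.8 and 26.6 and with KPC1 at 27.7, 23.5, 27.2 and 20.1. All 32 co-culture libraries lay above all 4 of the mono-culture, a separation that 3.57% of all tested genes showed in this direction and 4.17% in the other. The log2 fold change, from a quasi-likelihood fit with edgeR to all 36 libraries and adjusted by Benjamini-Hochberg over all genes, was 0.96 (SE 0.13, adjusted p = 2.7e-07) in the clonal mean. By line it ran from 0.69 (SE 0.16, adjusted p = 0.00033) with clone V to 1.40 (SE 0.16, adjusted p = 6.0e-08) with clone M, and 3.42% of genes were called higher with all 8 lines. Between lines Ptch1 differed in 7 of 28 pairs of co-cultures (25%), near the 27.5% of all such tests that were called. At least 7 pairs were reached by 53.7% of genes. In the order of levels, M, K, N, T, H, KPC1, E and V and then mono-culture, only the last step, from clone V to mono-culture, passed the test between neighbors.

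**Figure D1:**
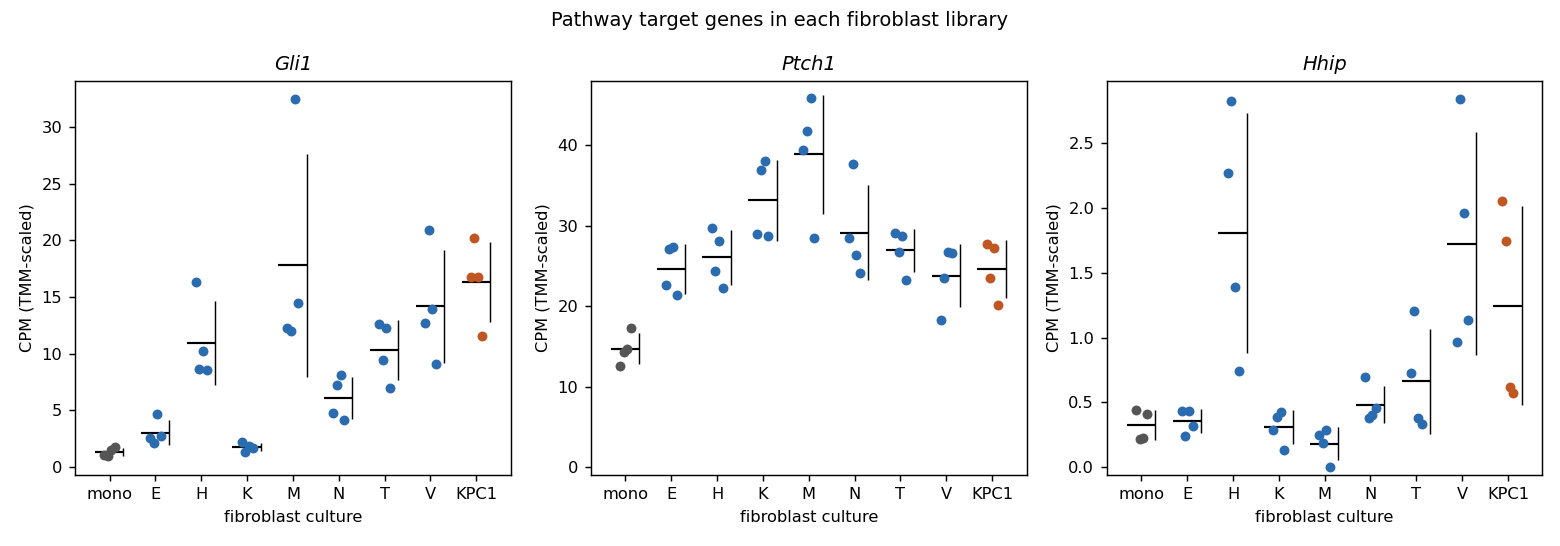
CPM (TMM-scaled, linear axes from 0) of Gli1, Ptch1 and Hhip in each of 36 fibroblast libraries, by culture. Points are libraries, the horizontal line is the mean of 4 and the vertical line its SD. Every co-culture library lies above the mono-culture for Ptch1 (highest mono-culture value 17.2 CPM, lowest co-culture value 18.3 CPM), while Gli1 with clone K (1.76 ± 0.360 CPM) lies beside the mono-culture (1.32 ± 0.364 CPM).

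Of the co-receptors, 4 were tested among 5 listed, and in the clonal mean 1 was higher, 1 was lower and 2 were not called, near the shares of all genes (24.3% higher and 24.9% lower), with a median log2 difference of −0.07. Gas1, a membrane-anchored co-receptor that promotes ligand binding, fell with 7 of 8 lines, by 1.98 on the log2 scale in the clonal mean (SE 0.22, edgeR adjusted p = 2.4e-08). Gas1 was at 631, 672, 647 and 498 CPM in mono-culture and at 26.4, 19.7, 45.8 and 51.5 CPM with KPC1, which had the lowest mean of the 8. With clone K it was at 264, 385, 364 and 404 CPM, below every mono-culture library, and the difference did not pass the test (log2 −0.79, adjusted p = 0.11). Boc, another co-receptor, rose by 0.62 in the clonal mean (SE 0.16, adjusted p = 0.0017), from 7.22 ± 0.239 CPM in mono-culture to 18.9 ± 3.32 CPM with clone K and 16.6 ± 3.05 CPM with clone M, and passed the test with clones K, M and N. The co-receptor Cdon was at 153 ± 16.8 CPM in mono-culture, and its line means lay between 117 ± 16.2 CPM with KPC1 and 176 ± 22.6 CPM with clone K. It passed with none of the 8 lines.

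**Figure D2:**
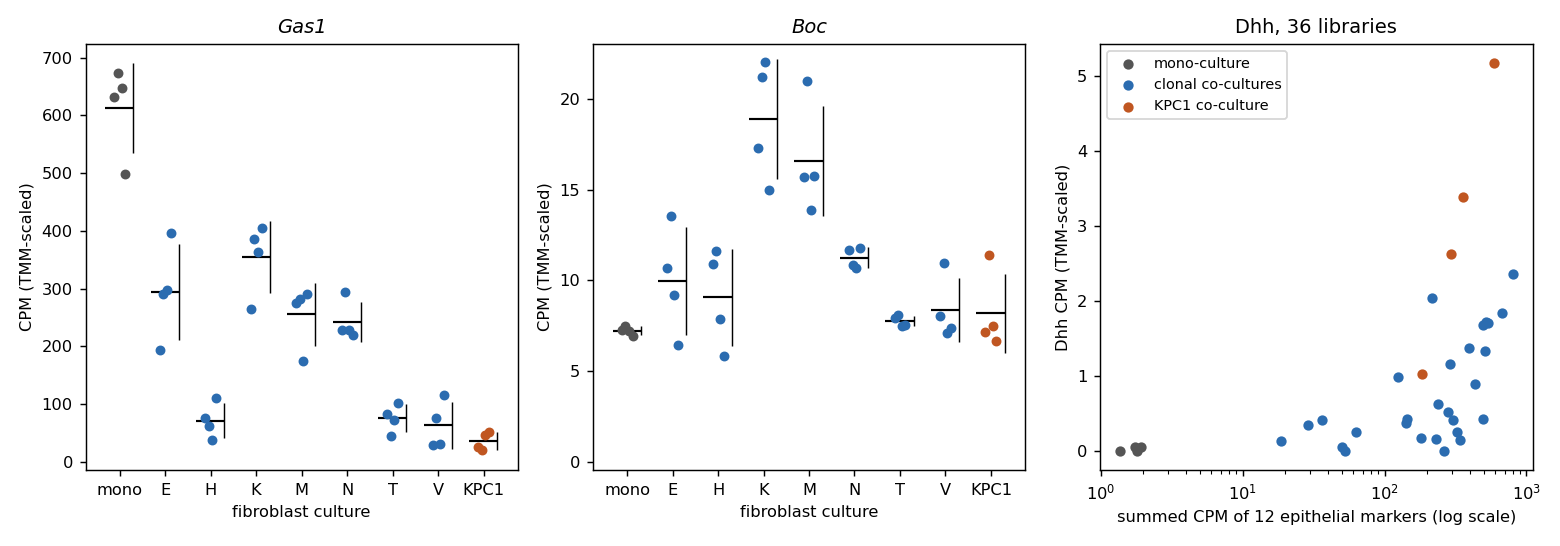
CPM (TMM-scaled) of the co-receptors Gas1 and Boc in each library by culture (points, libraries; horizontal line, mean of 4; vertical line, SD), and Dhh CPM against the summed CPM of 12 epithelial markers on a log axis, 1 point per library. Gas1 falls from 612 ± 77.9 CPM in mono-culture to 35.8 ± 15.2 CPM with KPC1, Boc is highest with clones K and M, and the library with the most Dhh (5.17 CPM, KPC1) has 588 CPM of epithelial markers.

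Hhip (ENSMUSG00000064325, chr8:79965851-80058006, minus strand) encodes a membrane protein that binds and sequesters the ligand and is itself a target. It was the least abundant member, with 0 to 59 counts in a library, so single libraries weigh heavily. It passed the low-count filter through co-culture libraries where it was high, chiefly those with clones H and V and KPC1 (10 to 59 counts). The mono-culture libraries had 3 to 9 counts, so the calls with these lines are not independent of the filter. Nor are the Hhip calls between co-cultures, among the clones or for KPC1 against the clones. In mono-culture it was at 0.440, 0.220, 0.228 and 0.411 CPM. With clone H it was at 2.28, 2.83, 1.39 and 0.742 CPM, with clone V at 0.967, 2.84, 1.96 and 1.14 and with KPC1 at 2.06, 1.75, 0.616 and 0.570. In these 3 co-cultures every library lay above all of the mono-culture, and the edgeR log2 fold changes were 2.42 (SE 0.52, adjusted p = 0.00022), 2.36 (SE 0.52, adjusted p = 0.00024) and 1.90 (SE 0.52, adjusted p = 0.0024). With clone M Hhip was at 0.248, 0.182, 0.287 and 0 CPM, and the fold change of −0.81 (95% interval −2.10 to 0.49, adjusted p = 0.39) did not pass. The clonal mean, 0.78 (SE 0.44, adjusted p = 0.14), did not pass the test, and without replicate number 4 of every group it did (1.09, adjusted p = 0.0498), as did clone T (1.33, adjusted p = 0.045, against 0.99, adjusted p = 0.13, with all libraries). On the scale of log2(RPKM + 1), which compresses values this low, these 3 differences were 0.20, 0.19 and 0.13 and still passed.

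Smo (ENSMUSG00000001761, chr6:29735503-29761365, plus strand), the transducer that Patched holds inactive, was the most abundant member. It was at 176, 184, 176 and 181 CPM in mono-culture. With clone H it was at 106, 98.5, 99.0 and 111 CPM, with clone T at 117, 112, 115 and 118, with clone V at 102, 111, 96.6 and 112 and with KPC1 at 95.8, 104, 100.4 and 100.5. With clone E it was at 166, 163, 128 and 140 CPM and with clone N at 143, 125, 111 and 111. Every library of these 6 co-cultures lay below all 4 of the mono-culture. With clone K, at 190, 189, 185 and 176 CPM, and clone M, at 216, 203, 171 and 181 CPM, the levels overlapped those of the mono-culture. The clonal mean was −0.41 (SE 0.06, edgeR adjusted p = 1.5e-06), and by line the log2 fold changes were −0.84 with KPC1, −0.77 with clone V, −0.79 with clone H, −0.55 with clone N, −0.64 with clone T and −0.26 with clone E (adjusted p = 0.014 or less), against 0.04 (95% interval −0.12 to 0.21) with clone K and 0.10 (−0.06 to 0.27) with clone M. The 4 lines with the lowest Smo, clones H, T and V and KPC1, were also those with fibroblast markers called lower, whose part was not tested. The call with clone E was lost without its replicate 3 (−0.19, adjusted p = 0.10), which had the lowest value there and the most epithelial markers, 497 CPM, and also without replicate number 4 of every group (−0.24, adjusted p = 0.069). Calls in the lower direction with at least 6 lines were made for 11.6% of genes, with at least 7 for 5.78% and with all 8 for 3.19%. Smo also differed in 19 of 28 pairs of lines, the most calls of any member, a count that 1.86% of genes reached. Its largest log2 difference between lines, 0.94 (SE 0.08), was smaller than those of Gli1 (3.33), Hhip (3.23) and Gli2 (1.48). Those of Gli3 (0.89), Sufu (0.77) and Ptch1 (0.71) were smaller still. The overlapping gene Gm13717, on the same strand, had 308 counts in all libraries together, against 90786 of Smo.

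**Figure D3:**
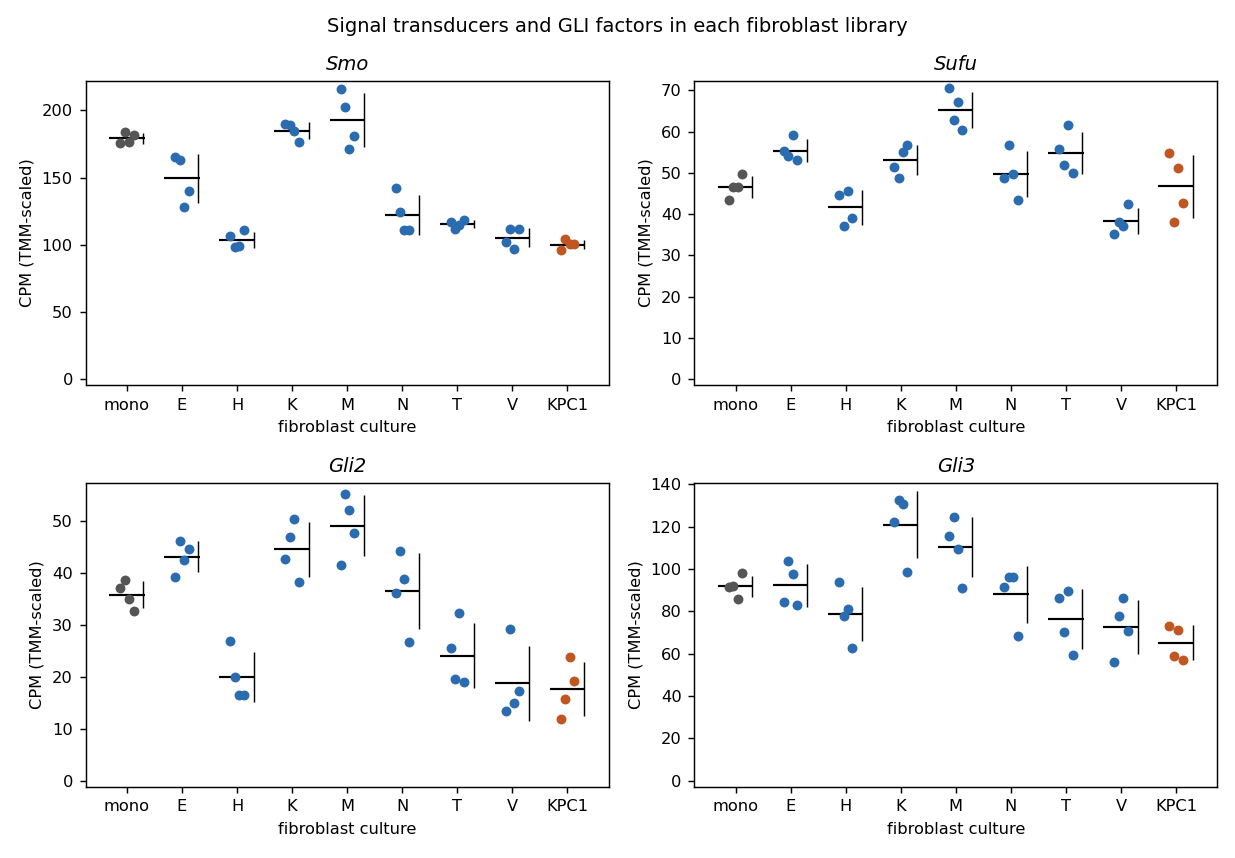
CPM (TMM-scaled, linear axes from 0) of Smo, Sufu, Gli2 and Gli3 in each of 36 libraries by culture (points, libraries; horizontal line, mean of 4; vertical line, SD). Smo and Gli2 share a shape, with clones K and M (Smo 185 and 193 CPM) at or above the mono-culture (179 CPM) and clones H and V and KPC1 (104, 105 and 100.2 CPM) lowest.

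Sufu (ENSMUSG00000025231, chr19:46396896-46488804, plus strand), the cytoplasmic inhibitor that holds the GLI factors, moved in both directions. It was at 43.4, 46.5, 46.5 and 49.8 CPM in mono-culture, at 70.5, 62.9, 67.1 and 60.4 CPM with clone M and at 35.2, 38.2, 37.2 and 42.5 CPM with clone V. All libraries of clone M lay above and all of clone V below the mono-culture, with log2 fold changes of 0.49 (SE 0.10, adjusted p = 0.00041) and −0.28 (SE 0.10, adjusted p = 0.014). Sufu was also called higher with clone E, 0.25 (SE 0.10, adjusted p = 0.049), and clone T, 0.24 (SE 0.10, adjusted p = 0.046). Leaving out 1 library at a time ended the call with clone E in 25 of 36 fits (0.20 to 0.28, adjusted p up to 0.17), among them each of the 4 mono-culture, clone E and clone V libraries. The call with clone T ended in 9 of 36 fits (0.18 to 0.24, adjusted p up to 0.17): without mono-culture replicate 1, 2 or 3, clone T replicate 1 or 3, clone E replicate 4, clone K replicate 4, clone N replicate 1 or clone V replicate 3. The call with clone V ended in 2, without mono-culture replicate 4 (−0.24, adjusted p = 0.058) or clone V replicate 1 (−0.24, adjusted p = 0.059). The calls with clones E and T also ended without scaling (0.20 and 0.16, adjusted p = 0.12 and 0.17), without a count filter (0.26 and 0.25, adjusted p = 0.076 and 0.060), with at least 10 counts in every library (0.23 and 0.21, adjusted p = 0.074 and 0.075), without the libraries richest in epithelial markers (0.21 and 0.23, adjusted p = 0.13 and 0.063), and on both RPKM scales (0.15 to 0.20, adjusted p = 0.12 to 0.18). That with clone E ended further with RLE scaling (0.25, adjusted p = 0.053) and without replicate number 4 (0.29, adjusted p = 0.053). Sufu with clone H was called lower without scaling (−0.25, adjusted p = 0.028) and on both RPKM scales (−0.23 and −0.25, adjusted p = 0.030 and 0.029). The clonal mean was 0.12 (95% interval −0.04 to 0.27, adjusted p = 0.21). A gene called higher with at least 1 line and lower with at least 1 other was uncommon, at 5.35% of all tested, and among the members Sufu and Gli3 were such genes. Within the lines Sufu followed the epithelial marker sum with a correlation of 0.51 over 32 libraries, the largest in size of the 7 members.

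Of 18 further transducers and regulators between Smo and the GLI factors, all tested, 5 were higher in the clonal mean, 5 were lower and 8 were not called, with a median log2 difference of 0.03. These counts lie near the shares of all genes in that comparison, 24.3% higher and 24.9% lower. Higher were Spop (0.47, adjusted p = 3.1e-08, with all 8 lines) and Cul3 (0.45, adjusted p = 1.9e-08), the adaptor and scaffold of a ubiquitin ligase that degrades GLI2 and GLI3, the arrestin Arrb2 (0.46, adjusted p = 1.5e-05), and by less the kinases Grk2 (0.16, adjusted p = 0.018) and Csnk1a1 (0.15, adjusted p = 0.036). Lower were Evc (−0.50, adjusted p = 0.00024) and Efcab7 (−0.23, adjusted p = 0.037), parts of a ciliary complex that relays Smo activity, the inhibitory receptor Gpr161 (−0.42, adjusted p = 0.0031), its carrier into the cilium Tulp3 (−0.22, adjusted p = 0.0037), and the kinase Stk36 (−0.45, adjusted p = 0.011). Of 10 genes of transport in the primary cilium, 1 was higher (Kif3a, 0.17, adjusted p = 0.014), 5 were lower and 4 were not called, with a median of −0.17, beside 24.3% of all genes higher and 24.9% lower. The 5 were Ift88 (−0.51, adjusted p = 1.4e-05), Ift80 (−0.43, adjusted p = 4.5e-06), Ift52 (−0.35, adjusted p = 0.0022), Ift122 (−0.55, adjusted p = 2.6e-06) and Wdr35 (−0.39, adjusted p = 0.00017), all subunits of the transport particles. Ift88, Ift80 and Wdr35 were each lower with 7 of 8 lines.

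Gli2 (ENSMUSG00000048402, chr1:118834132-119053619, minus strand), the main activator among the GLI factors, was at 37.0, 38.6, 34.98 and 32.7 CPM in mono-culture. With clone H it was at 26.8, 20, 16.6 and 16.5 CPM, with clone V at 13.5, 29.2, 14.9 and 17.3 and with KPC1 at 11.9, 15.7, 23.9 and 19.2. With clone T it was at 25.5, 19.6, 32.3 and 19.04 CPM. Every library of these 4 co-cultures lay below all of the mono-culture, and the edgeR log2 fold changes were −0.85 (SE 0.21, adjusted p = 0.00098) with clone H, −0.93 (SE 0.21, adjusted p = 0.00030) with clone V, −1.02 (SE 0.21, adjusted p = 0.00011) with KPC1 and −0.57 (SE 0.21, adjusted p = 0.021) with clone T. In these 4 co-cultures 5, 5, 6 and 6 of 10 fibroblast markers were called lower, and 0 in the other 4, with median log2 differences over the 10 of −0.51, −0.48, −0.86 and −0.59, against 0.03 to 0.38 with clones E, K, M and N. The shares of all genes called lower were 26.4%, 28.9%, 28.5% and 24.7% with clones H and V, KPC1 and clone T. With clones E, K, M and N they were 15.5%, 8.69%, 10.8% and 19.2%. The part of the fibroblast markers in the Gli2 result was not tested. The call with clone T was lost in 3 of 36 fits that left out 1 library: without mono-culture replicate 2 (−0.53, adjusted p = 0.054), clone T replicate 2 (−0.48, adjusted p = 0.083) or clone T replicate 4 (−0.47, adjusted p = 0.076). It was also lost without replicate number 4 of every group (−0.53, adjusted p = 0.087). With clones E, K and M all 12 libraries but 1 (clone K replicate 4, 38.2 CPM) lay above the mono-culture, at 39.2 to 55.1 CPM, yet the differences did not pass the test: 0.27 (adjusted p = 0.35), 0.31 (adjusted p = 0.31) and 0.45 (95% interval 0.04 to 0.87, adjusted p = 0.11). With only the libraries of the line and the mono-culture in the fit these 3 passed, at 0.28, 0.32 and 0.47. With clone N the difference was 0.02 (95% interval −0.39 to 0.44), and the clonal mean of −0.18 (adjusted p = 0.33) averaged over lines of opposite sign. In the order of levels the 9 groups parted at the mono-culture: M, K, E, N and mono-culture above and T, H, V and KPC1 below, the step between mono-culture and clone T being the only one between neighbors that passed.

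Gli3 (ENSMUSG00000021318, chr13:15463235-15730026, plus strand), the main repressor among the GLI factors, changed least in the clonal mean. It was at 91.7, 92.2, 85.9 and 98.0 CPM in mono-culture, at 73.3, 59.2, 71.2 and 57.2 CPM with KPC1 and at 122, 133, 131 and 98.4 CPM with clone K. All libraries of KPC1 lay below and all of clone K above the mono-culture, and the log2 fold changes were −0.50 (SE 0.14, adjusted p = 0.0033) and 0.40 (SE 0.14, adjusted p = 0.046). With clone V Gli3 was at 56.2, 77.8, 86.4 and 70.8 CPM and the fold change was −0.34 (SE 0.14, adjusted p = 0.041). Leaving out 1 library ended the call with clone K in 13 of 36 fits (0.35 to 0.43, adjusted p up to 0.13): without any 1 of the 4 mono-culture libraries, clone K replicate 1, 2 or 3, or a single library of clones E (4), H (3), M (1), N (1), V (4) or KPC1 (3), by replicate number. The call with clone V ended in 6 fits (−0.35 to −0.23, adjusted p up to 0.20), without any 1 of the 4 mono-culture libraries or without clone V replicate 1 or 4. With clone K the call also ended without scaling (0.34, adjusted p = 0.060), without a count filter (0.39, adjusted p = 0.054) and on both RPKM scales (0.31 and 0.33, adjusted p = 0.062 and 0.070), and that with clone V without a count filter (−0.32, adjusted p = 0.064) and without the libraries richest in epithelial markers (−0.32, adjusted p = 0.094). Calls were gained with clone M when only the 2 groups were fitted (0.28, adjusted p = 0.028) or replicate number 4 was left out (0.36, adjusted p = 0.044), and with clones H and T without scaling (−0.32 and −0.34, adjusted p = 0.037 and 0.026) and on both RPKM scales (−0.35 to −0.29, adjusted p = 0.039 or less). The clonal mean was −0.03 (95% interval −0.25 to 0.18). Gm6556, a gene on the other strand inside Gli3, had 203 counts in all libraries together and did not differ with any line.

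Gli1 (ENSMUSG00000025407, chr10:127329882-127341974, minus strand), the GLI factor that is itself induced by the pathway, changed most. It was at 1.05, 0.990, 1.52 and 1.74 CPM in the mono-culture libraries, from 18 to 38 counts each. With KPC1 it was at 16.8, 20.2, 16.8 and 11.6 CPM, with clone M at 12.3, 12.02, 32.5 and 14.5, with clone T at 12.6, 9.45, 12.2 and 6.97, with clone V at 12.7, 20.9, 14.0 and 9.09 and with clone H at 16.4, 8.64, 10.3 and 8.55. With clone N it was at 4.797, 7.26, 8.13 and 4.196 CPM, with clone E at 2.54, 2.16, 4.66 and 2.74 and with clone K at 2.17, 1.30, 1.85 and 1.71. All libraries with the first 7 of these lines lay above the mono-culture, and those of clone K overlapped it, 2 of 4 lying above. The edgeR log2 fold changes were 3.74 (SE 0.36, adjusted p = 5.6e-09) with clone M, 3.62 (SE 0.36, adjusted p = 1.1e-09) with KPC1, 2.96 with clone T, 3.41 with clone V, 3.04 with clone H, 2.19 with clone N (adjusted p = 1.3e-05 or less for these 4), 1.17 (SE 0.37, adjusted p = 0.015) with clone E and 0.42 (95% interval −0.37 to 1.199, adjusted p = 0.50) with clone K. The clonal mean was 2.42 (SE 0.31, adjusted p = 1.6e-07). Calls in the higher direction with at least 7 of 8 lines were made for 6.50% of genes. The call with clone E was lost without its replicate 3 (0.90, adjusted p = 0.082), the library of clone E with the most epithelial markers, and on log2(RPKM + 1) (0.38, adjusted p = 0.16). It was kept in the fit that left out the library of each co-culture richest in epithelial markers, this replicate among them. The mean level with clone M, which rests in part on its high replicate 3, was 10.1 times that with clone K, and the other 3 libraries of clone M (12.02 to 14.5 CPM) also lay above all 4 of clone K (1.30 to 2.17 CPM). Arhgap9, which overlaps Gli1 on the other strand, had at most 7 counts in a library.

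Gli1 and Ptch1, the usual readouts of the pathway, did not rank the lines alike. With clone K, Ptch1 rose by 1.17 (SE 0.16, adjusted p = 2.0e-06), more than with any other line but M, while Gli1 did not pass the test. With KPC1 and clone V, Gli1 stood among the highest values and Ptch1 among the lowest of the 8. The correlation of their mean log2 levels was −0.12 over the 8 lines and 0.43 over the 9 groups, whose points share the libraries and the scaling, and is a description only.

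**Figure D4:**
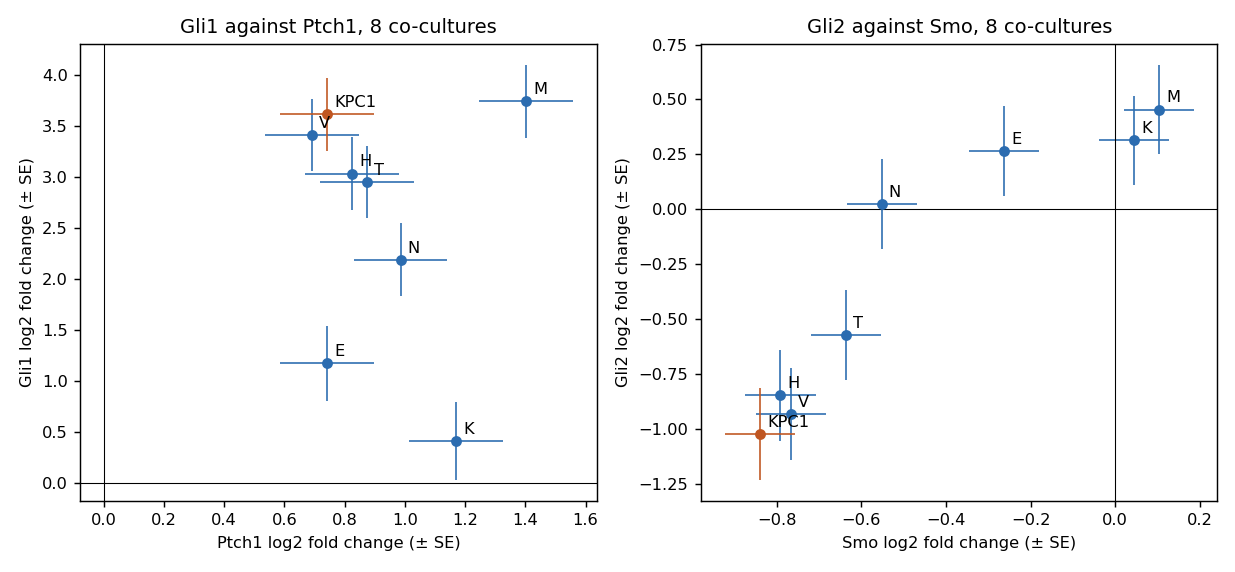
Log2 fold change against mono-culture of Gli1 against Ptch1 (left) and of Gli2 against Smo (right), 1 point per tumor line with SE bars on both axes. All points share the 4 mono-culture libraries. On the left clone K combines a high Ptch1 value (1.17) with a low Gli1 value (0.42), and on the right the 8 lines run from KPC1 (Smo −0.84, Gli2 −1.02) to clone M (Smo 0.10, Gli2 0.45).

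Further mesenchymal genes that Hedgehog signaling is known to induce were listed to set beside the members. Of 11 tested among 12, 6 were higher in the clonal mean, 3 were lower and 2 were not called, with a median log2 difference of 0.93 against 0.01 over all genes, of which 24.3% were higher and 24.9% lower. Higher were the forkhead factor Foxl1 (2.05, SE 0.37, adjusted p = 2.6e-05, with 7 of 8 lines), the cyclins Ccnd1 (1.47, adjusted p = 1.9e-05, with 7) and Ccnd2 (0.93, adjusted p = 1.4e-06, with 8), the survival gene Bcl2 (1.05, adjusted p = 4.6e-06, with 8), the transcription factor Snai1 (0.99, adjusted p = 1.7e-07, with 8) and the Notch ligand Jag2 (1.60, adjusted p = 0.0016, with 5). Lower were the factors Osr2 (−1.66, adjusted p = 6.7e-07, with 6 of 8 lines), Osr1 (−0.68, adjusted p = 1.6e-05, with 6) and Foxf1 (−0.42, adjusted p = 0.013, with 3). Foxf2 (−0.01) and Bmp4 (−0.39, adjusted p = 0.057) were not called. Several of these genes have other regulators, and Ccnd1 and Jag2 moved with the epithelial marker sum within the lines (correlations of 0.64 and 0.61 over 32 libraries), whose part was not tested, while Foxl1 and Bcl2 had correlations of −0.23 and −0.21. Over the 8 line means the correlations were 0.87 for Ccnd1, 0.62 for Bcl2, 0.58 for Jag2 and 0.14 for Foxl1.

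Counted by line, the members called of 7 were 4 with clone E, 5 with H, 2 with K, 3 with M, 3 with N, 5 with T, 7 with V and 6 with KPC1. The shares of all tested genes called in the same comparisons were 32%, 54.2%, 19.1%, 23%, 39%, 49.8%, 58.3% and 59%, so clone K was lowest and clone V and KPC1 were highest on both counts. By direction, clone K raised 2 members and lowered 0, beside 10.4% and 8.69% of all genes, clone V raised 3 and lowered 4, beside 29.4% and 28.9%, and KPC1 raised 3 and lowered 3, beside 30.5% and 28.5%. Pooled over the 8 lines, 35 of 56 member tests were called, 22 higher and 13 lower, against 41.8% of all tests (21.4% higher and 20.4% lower). In the clonal mean 3 of 7 members were called, 2 higher and 1 lower, beside 49.2% of all genes, a share below that of all genes.

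**Figure D5:**
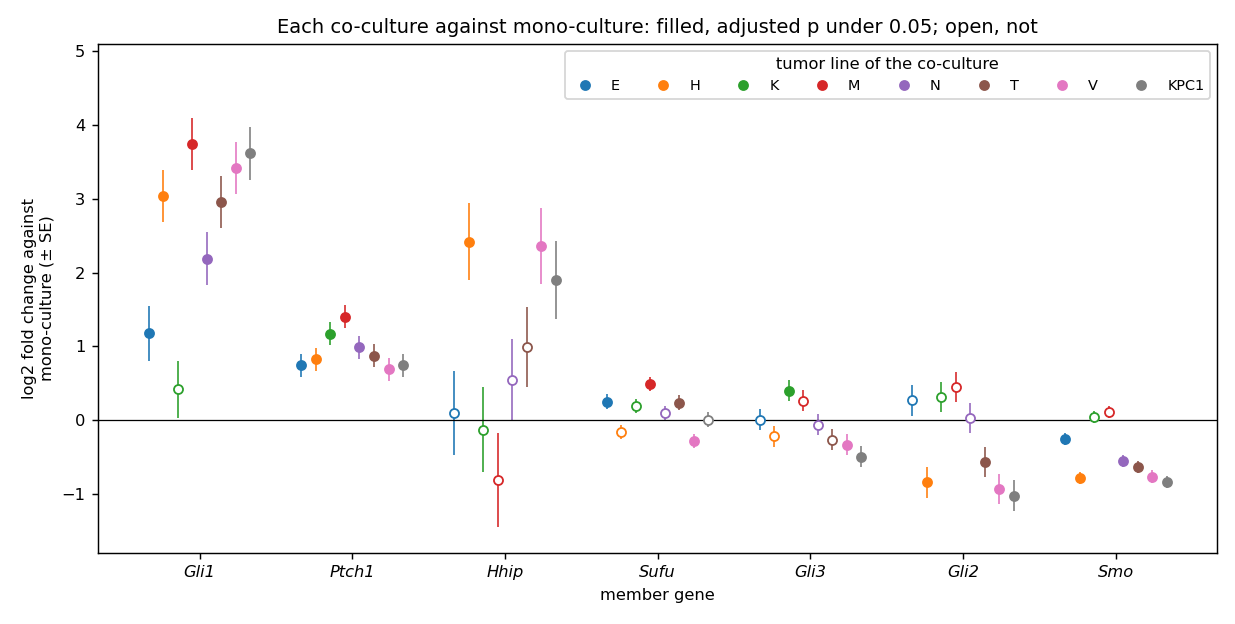
Log2 fold change against mono-culture (± SE) of each member with each of the 8 tumor lines, from edgeR. Filled points passed an adjusted p of 0.05 and open points did not. Gli1 spans 0.42 to 3.74 and Ptch1 0.69 to 1.40, all above 0, while Smo spans −0.84 to 0.10 and Gli2 −1.02 to 0.45.

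The second question of the design is how far the response depends on the tumor line. An F-test over the 7 clonal co-cultures called 7 of 7 members, beside 67.5% of all genes, with adjusted p from 2.1e-11 for Smo to 0.00087 for Ptch1. Over the 28 pairs of co-cultures, 97 of 196 member tests were called, beside 27.5% of all tests: Smo in 19 pairs, Gli1 in 17, Gli2 in 15, Hhip and Sufu in 14, Gli3 in 11 and Ptch1 in 7. Genes that reached these counts made up 1.86%, 6.66%, 15.7%, 20.7%, 35.2% and 53.7% of those tested. The Hhip calls, in the F-test and in the pairs, are not independent of the low-count filter. For Gli1 the order of levels was M, KPC1, V, H, T, N, E, K and mono-culture, at 17.8, 16.3, 14.2, 10.95, 10.3, 6.09, 3.03, 1.76 and 1.32 CPM. No neighbors in that order passed the edgeR test after adjustment over all genes (adjusted p = 0.11 or more), although its ends were far apart. Some unadjusted 95% intervals of the log2 difference lay clear of no difference: clone E minus N (−1.68 to −0.35) and N minus T (−1.39 to −0.14). So did that of clone E minus K (0.04 to 1.48). In the orders of Gli3, Hhip and Sufu no neighbors passed the test either. For Smo the only passing step was from mono-culture to clone E (adjusted p = 0.014).

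KPC1 against the mean of the 7 clones called 5 of 7 members, 2 higher and 3 lower, beside 41.1% of all genes. Of all genes, 22.3% were higher and 18.8% lower in this contrast. Gli1 was higher with KPC1 by 1.198 (SE 0.21, adjusted p = 4.5e-05) and Hhip by 1.12 (SE 0.34, adjusted p = 0.0096), while Smo was lower by 0.43 (SE 0.06, adjusted p = 7.4e-06), Gli2 by 0.84 (SE 0.17, adjusted p = 0.00023) and Gli3 by 0.46 (SE 0.11, adjusted p = 0.0014). The Hhip call was lost without KPC1 replicate 1 (0.75, adjusted p = 0.15) or replicate 2 (0.93, adjusted p = 0.070), without the library of each co-culture richest in epithelial markers (0.73, adjusted p = 0.21), and with limma on log2(RPKM + 1) (0.064, adjusted p = 0.20) or log2(RPKM + 0.1) (0.38, adjusted p = 0.094). Ptch1 was lower with KPC1 by 0.21 (95% interval −0.45 to 0.03, adjusted p = 0.15) and Sufu by 0.11 (−0.26 to 0.04, adjusted p = 0.24), and neither passed. Upstream of the members, Dhh was higher with KPC1 than with the clones by 2.40 (SE 0.41, adjusted p = 3.5e-05) and Gas1 lower by 2.12 (SE 0.32, adjusted p = 8.9e-06). The other target genes did not share a direction, since Jag2 was higher by 2.28 (SE 0.26, adjusted p = 2.9e-07) and Foxl1 lower by 1.15 (SE 0.33, adjusted p = 0.0056). Of 11 targets tested in this contrast, 1 was higher, 3 were lower and 7 were not called. The shares of all genes were 22.3% higher and 18.8% lower.

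Gli2, Gli3 and Smo varied together across the cultures. Over the 9 group means of log2 CPM, the correlation was 0.90 between Gli2 and Smo, 0.92 between Gli2 and Gli3 and 0.92 between Gli3 and Smo, and Hhip ran against them (−0.94 with Gli2 and −0.91 with Smo). The group means come from the same 36 libraries with shared scaling, and the values are a description of 9 points. Of 11694 tested genes with a mean of at least 2 CPM, the 5 whose pattern over the 9 groups was most like that of Gli1 were Slc45a3 (Pearson r = 0.94), Znrf1, Ssh2, Anks1 and Sh3bp1 (0.91). Their log2 fold changes in the clonal mean, 0.14 to 0.54, were smaller than the 2.42 of Gli1: Slc45a3 went from 4.58 CPM in mono-culture to 9.40 CPM with clone V, and Sh3bp1 from 64.6 to 113 CPM with KPC1. Most like Ptch1 were Lhx6 (0.98), Nr6a1, Adamts12, Man2a2 and Bach2 (0.94), of which Adamts12, a secreted metalloprotease, changed most and rose with 8 of 8 lines, by 1.04 in the clonal mean (edgeR adjusted p = 8.3e-06).

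The epithelial markers were set beside each member. Within the lines the correlation of the member's log2 level with the log2 marker sum, over 32 libraries, was 0.20 for Gli1, 0.17 for Ptch1, −0.08 for Gli3, −0.19 for Gli2, −0.24 for Hhip, −0.32 for Smo and 0.51 for Sufu, and over the 8 line means it was 0.05 for Gli1 and −0.11 for Ptch1. Without the library of each co-culture that held the most epithelial markers, 3 of 7 members were still called in the clonal mean, and 31 of 56 tests by line in place of 35. By line, the marker sums and the Gli1 fold changes were 18.6 to 302 CPM and 0.42 with clone K, 28.9 to 215 CPM and 3.41 with clone V, 182 to 588 CPM and 3.62 with KPC1, and 435 to 672 CPM and 2.19 with clone N. The part of the epithelial marker RNA in the members' results was not tested.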

How the data were processed

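Poly(A) RNA of 36 fibroblast libraries was sequenced as strand-specific paired-end reads of 76 bases. Per the labels the authors aligned to mm10 with STAR and counted with featureCounts, and edgeR is also named. Versions, the annotation and the use of strand in counting are not given in the sources used here. The deposited counts are whole reads per gene and not normalized, and the deposited RPKM values divide them by gene length and library size, as made by the authors.

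Groups came from the labels. edgeR 4.0.16 in R 4.3.3 (filterByExpr, TMM, quasi-likelihood F-test, 1 coefficient per group, all 36 libraries) tested 14439 of 39017 genes, two-sided, with Benjamini-Hochberg adjustment over all genes at 0.05. Contrasts were each co-culture against mono-culture, the mean of the 7 clones against mono-culture, KPC1 against that mean, the 7 clones among themselves, and the 28 pairs of co-cultures. Alternatives were RLE or no scaling, no or a stricter count filter, DESeq2 1.42.0, limma 3.58.1 on log2(RPKM + 1) and log2(RPKM + 0.1), a threshold of 0.1, fits of 2 groups, a replicate block and each library left out, and, chosen after seeing the data, leaving out replicate 4 of all groups or the library of each co-culture richest in epithelial markers. Named genes were the members, the ligands, receptors and targets of the pathway lists, list genes called in the clonal mean, the markers, and the 5 most like Gli1 and Ptch1 over group means among 11694 genes with at least 2 CPM. Members and gene lists were chosen with earlier results of these data known. A further list gene is not reported here and was left out of the list counts. Library totals of 12532122 to 21985538 counts set the precision, which is lowest for Hhip and Dhh. The code was tested on simulated data. No pair of libraries was alike within sampling noise.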

Additional observations from a re-analysis of the deposited data

Results flagged for a closer look

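In 63 sets of 4 libraries (7 genes in 9 groups), the highest or lowest library lay beyond Dixon's 95% critical value in 2, where chance gives about 1 in 20, or 3.15. Gli1 with clone M had a gap ratio of 0.880, since replicate 3 was at 32.5 CPM and the others at 12.02 to 14.5 CPM. The same library had the most epithelial markers of clone M (523 CPM, against 52.8 to 280 CPM), the part of which was not tested. Gli3 with clone N had a ratio of 0.832, since replicate 4 was at 68.2 CPM and the others at 91.5 to 96.2 CPM. Replicate 4 was the lowest library for Gli3 in 7 of 8 co-cultures, with a mean log2 deviation from the line means of −0.24, and likewise for Ptch1 in 7 of 8 (−0.20). It was the lowest in 5 of 8 for Gli1 (−0.33) and Hhip (−0.74), in 4 for Gli2 (−0.13) and Sufu (−0.054) and in 1 for Smo (−0.018).

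Every member differed between co-cultures in at least 1 of 28 pairs, by edgeR with adjustment over all genes. The largest differences on the log2 scale were 3.33 for Gli1, higher with clone M than with K (adjusted p = 7.8e-07), and 3.23 for Hhip, higher with clone H than with M (adjusted p = 2.1e-05). The Hhip test is not independent of the low-count filter, which Hhip passed through libraries such as those of clone H. With clone M it had 0 to 5 counts. For Gli2 the difference was 1.48 and for Smo 0.94, both higher with clone M than with KPC1 (adjusted p = 8.5e-07 and 4.7e-10). For Gli3 it was 0.89, higher with clone K than with KPC1 (adjusted p = 4.4e-06). Clone M exceeded clone V by 0.77 for Sufu (adjusted p = 1.0e-07) and by 0.71 for Ptch1 (adjusted p = 0.00019). These pairs are the largest of 28 and their sizes are a description.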

How the results depend on the processing

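The counts of members called stayed within 1.5 times in every alternative run: 3 to 4 in the clonal mean, 30 to 38 of 56 by line, 85 to 107 of 196 over pairs, 4 to 5 for KPC1 against the clones and 6 to 7 among the clones. Of 886 log2 differences under other settings, 815 kept direction and side of the threshold, as did 2680 of 2772 with 1 library left out. In the clonal mean Gli1 ran from 1.11 to 2.69, Ptch1 from 0.65 to 1.09 and Smo from −0.48 to −0.40, all past the threshold.

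Of the differences that changed sign, none passed the test before or after, and the cause was not tested. Without scaling, Gli2 with clone N was −0.039, Gli3 with clone E −0.050, Smo with clone K −0.0068 and Sufu with KPC1 −0.090. On log2(RPKM + 1) the same 4 were −0.048, −0.048, −0.0073 and −0.091, and on log2(RPKM + 0.1) −0.059, −0.052, −0.0075 and −0.10. With at least 10 counts in every library, which drops Hhip, Gli3 with clone E was −0.018 and Sufu with KPC1 −0.031. Sufu with KPC1 was also −0.0051 with RLE scaling, −0.0050 with DESeq2 and −0.0068 with 2 groups fitted. Without the libraries richest in epithelial markers, Gli2 with clone N was −0.10, Gli3 with clone E −0.032, Sufu with KPC1 −0.092, and Hhip −0.0090 with clone E and 0.13 with clone K. Without replicate 4 of all groups, Hhip with clone K was 0.26, and Gli3 was 0.061 with clone N and 0.064 in the clonal mean. With 1 library left out, the ranges that crossed 0 were −0.076 to 0.15 for Gli2 with clone N, −0.048 to 0.052 for Gli3 with clone E, −0.10 to 0.047 for Gli3 with clone N, −0.050 to 0.26 for Hhip with clone E, −0.33 to 0.13 for Hhip with clone K and −0.092 to 0.094 for Sufu with KPC1.

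The limit set for pairing by replicate number was a correlation over 0.1 in every pair. It held in 0 of 8 pairs of mono-culture with a co-culture and in 7 of 28 pairs of co-cultures. Even so, 27 of 32 co-culture libraries correlated best with their own number. The main fit holds no term for replicate number, so variation shared by libraries of the same number stays in its spread. The replicate block gave 36 calls by line and 107 over pairs, and Gli3 with clone E and Sufu with KPC1 became −0.0081 and −0.0026. It added the call of Gli3 with clone T (−0.29, adjusted p = 0.034). Depth limits Hhip most, which had 3 to 9 counts without tumor cells.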
